A study of Mus musculus with 278 samples.

Results

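Keratin 10 (Krt10) is the type I keratin by which a suprabasal epidermal cell is usually recognised. Keratins work as obligate pairs of a type I and a type II protein. Basal keratinocytes use Krt14 with Krt5, and a cell that leaves the basement membrane and commits to differentiation replaces that pair with Krt10 and Krt1, before the cornified envelope is built from loricrin, involucrin and small proline-rich proteins. Activated keratinocytes, in wounds and in culture, use Krt6, Krt16 and Krt17.

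The cells described here are the keratinocytes with the most and the least Krt10 mRNA in the AG series of a single-cell RNA-seq experiment on cultured mouse skin cells. The members were chosen by their Krt10 level alone. Cells were ranked by Krt10 separately within the untreated and the treated cells, each ranking was cut into 3 classes of near-equal size, and the highest class (Krt10-high) was set against the lowest (Krt10-low). This gave 43 Krt10-high cells (22 untreated and 21 treated) and 43 Krt10-low cells (22 and 21), that is 86 of the 130 cells of the AG series. The whole series has 270 cells with a group, of which the other 140 carry the name GHA501A.

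Keratinocytes had been isolated from adult dorsal skin, and 9 parts of wild-type cells were co-cultured with 1 part of K14ΔNβ-cateninER cells. The latter carry, under the keratin 14 promoter, a stabilised form of beta-catenin that the drug 4-hydroxy-tamoxifen (4OHT) switches on through an oestrogen receptor domain. The untreated co-cultures received DMSO and the treated co-cultures 200 nM 4OHT for 24 h, and both groups contained the transgenic cells, which were not told apart from wild-type cells here. Single cells were captured on a medium-sized microfluidic chip, which held back the large terminally differentiated cells. The labels name no animal or culture, so the 2 sets of cells, untreated and treated, were taken as 2 replicates of the comparison of Krt10-high with Krt10-low cells, and cells were never counted as replicates. The files hold TPM, transcript levels corrected for gene length and scaled to a sum of 1000000 in every cell, so that the read depth of a cell is unknown and a gene listed at 0 may have been missed.

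Krt10 levels did not overlap between the classes, by construction. In untreated Krt10-low cells Krt10 ranged from 0 to 7.95 TPM with a median of 0, and in untreated Krt10-high cells from 26.2 to 279.5 TPM with a median of 53.4. In treated cells the low class ranged from 0 to 11.7 TPM (median 7.20) and the high class from 30.8 to 175.3 TPM (median 61.4). The cells just outside the limits were close to them. The middle class began at 7.95 TPM and ended at 23.9 TPM in untreated cells, and began at 11.9 TPM and ended at 30.6 TPM in treated cells. Krt10 was listed at 0 in 13 untreated and 5 treated cells, all of them in the low class. In the GHA501A cells, which were not ranked, the median was 7.17 TPM untreated and 2.31 TPM treated.

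The high class was high only relative to the low class, and its cells still had the keratins of basal cells. Krt10 made up 0.00731% of the transcripts of untreated and 0.00651% of those of treated Krt10-high cells, against 0.620% and 0.739% for Krt14 in the same cells. Krt5 and Krt14 were over 1 TPM in 100% of the 130 cells. Krt1, the type II partner of Krt10, was listed at 0 in each of the 86 cells of the high and low classes and was over 1 TPM in 0.769% of the 130 cells. A 0 in this file cannot be read as absence, since Itgb4, a hemidesmosome integrin of basal cells, was also listed at 0 in all 130 cells. The classes are named by their Krt10 level and not as suprabasal cells, because their other suprabasal marker could not be read and their Krt10 share was small.

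Krt10 lies on chromosome 11 of the mouse (GRCm38, positions 99385254 to 99389364, minus strand), in the cluster of type I keratin genes that also holds Krt15, Krt14, Krt16, Krt17 and Krt42. The 100 bases before the RefSeq start site are shown for Krt10, which ranked the cells, and for Krt42, the keratin with the largest difference between the classes. The letters TATAAA, the core of a TATA box, are in capitals.
Krt10, chr11:99389365-99389464, minus strand, GRCm38.p6: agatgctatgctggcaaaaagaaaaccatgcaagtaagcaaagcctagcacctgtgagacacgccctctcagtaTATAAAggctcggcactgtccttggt
Krt42, chr11:100269952-100270051, minus strand, GRCm38.p6: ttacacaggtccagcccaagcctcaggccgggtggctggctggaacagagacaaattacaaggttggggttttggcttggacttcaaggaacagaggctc
TATAAA began 26 bases before the Krt10 start. It was not among these letters of Krt42. On the strand of the gene it was found in 3.799% of 32851 such windows of all genes, and on either strand in 5.561%.

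The classes also differed in how many genes were detected (over 1 TPM) per cell. In the untreated set Krt10-low cells had from 3719 to 7046 genes with a median of 5833.5, and Krt10-high cells from 4877 to 6773 with a median of 6288. In the treated set the low class had from 2538 to 7278 genes (median 6303) and the high class from 4870 to 7389 (median 6351). The ranges overlapped in both sets, and the difference lay in a tail of cells with few genes. Of the 11 untreated cells under 5000 genes, 8 were Krt10-low and 1 was Krt10-high, and of the 7 such treated cells 5 were Krt10-low and 1 was Krt10-high. The cells at 0 for Krt10 held most of that tail, with a median of 4908 genes untreated and 4380 treated, whereas the other Krt10-low cells had medians of 6439 and 6471. As a description over the cells of one set, Spearman's rho between Krt10 and genes detected was 0.28 in the untreated set (n = 66 cells) and 0.11 in the treated set (n = 64), and among the cells with at least 5000 genes it was -0.025 (n = 55) and -0.089 (n = 57). The points share their TPM scaling.

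**Figure D1:**
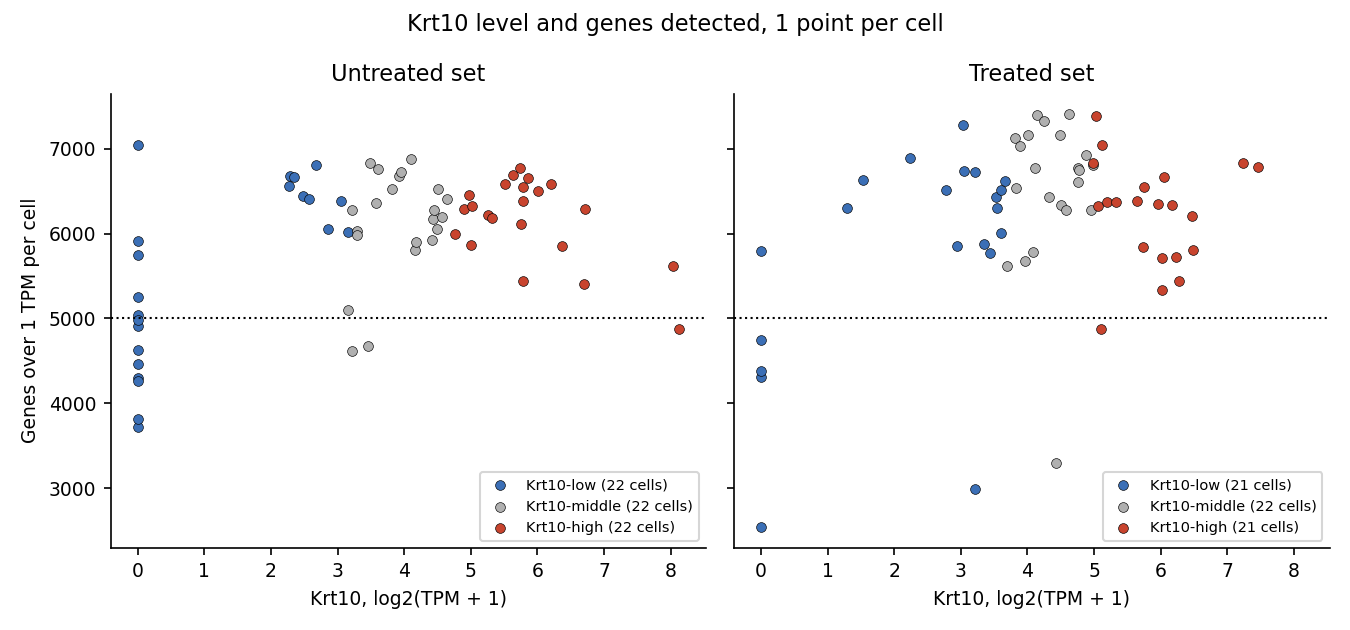
Krt10 level, as log2(TPM + 1), against the number of genes over 1 TPM, 1 point per cell, with 1 panel per set, coloured by Krt10 class. The dotted line marks 5000 genes, under which 13 Krt10-low and 2 Krt10-high cells lie.

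Most cells with few genes carried 1 transcript at a large share, which was unevenly spread over the classes. Gm20594, a gene model for which no role is given, took over 1% of all transcripts in 11 of the 11 untreated cells under 5000 genes and in 1 of the 55 others, and in 5 of the 7 such treated cells and 0 of the 57 others. By class it was over 1% in 9 untreated and 4 treated Krt10-low cells, against 1 and 0 Krt10-high cells, with a highest share of 32.7% in an untreated Krt10-low cell. Pigr, the receptor that carries polymeric immunoglobulin across epithelia, reached 18.1% of the transcripts of 1 untreated Krt10-low cell, and Rhox8, a homeobox gene of the X-linked reproductive cluster, reached 15.98%. Each of these was over 1% in 1 cell of each set, under 5000 genes and Krt10-low. These genes were chosen after their values were seen.

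For the comparison of all other genes, log2(TPM + 1) was averaged over the cells of a class within a set, and the difference Krt10-high minus Krt10-low was taken in each set. Of 10939 genes over 1 TPM in more than 5 of the 130 cells, 687 (6.28%) were higher in Krt10-high cells by at least 1 on this scale in both sets, and 54 (0.494%) were lower by at least 1 in both. limma with the set as a block called 0 genes higher (0%) and 0 genes lower (0%) at an adjusted p under 0.05 and a difference over 0.5, with a smallest Benjamini-Hochberg adjusted p of 0.181. At an unadjusted p under 0.05 it had 1681 genes higher and 399 lower. The fit had 4 class means and 1 residual degree of freedom, and an exact sign-flip test over 2 sets could not give a p under 0.5. The differences below are therefore sizes seen in both sets and not tested changes. A gene is called where its difference was at least 1 in both sets in one direction. Whatever their size, 41.6% of all genes were higher and 22.8% lower in both sets, which is the background for counts of genes of one direction. The adjusted p (limma, Benjamini-Hochberg) of the 42 named genes that were called lay between 0.181 and 0.182.

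The excess of higher genes was seen with all cells and was absent among the cells with at least 5000 genes. It was kept in part when cells were ranked by Krt10 within classes of genes detected. That setting still included the cells under 5000 genes, in the lowest of its classes, so it does not show the excess without them. When cells under 5000 genes were left out and the remaining cells ranked again (18 untreated and 19 treated cells per class), 60 genes (0.548%) were higher and 63 (0.576%) lower by the same size in both sets. Of the 687 genes 50 kept their size and direction, and of the 54 genes 11 did. The correlation across genes of the differences in the 2 sets was r = 0.424 with all cells and r = 0.040 without the cells under 5000 genes, where genes are not independent replicates. The median difference over all genes moved from 0.14 to -0.02. With levels taken as log2 of the mean TPM of a class, instead of the mean of log2(TPM + 1), 1.52% of genes were higher and 6.11% lower, so that the excess turned to the lower direction, and with every cell centred on its own mean 3.57% were higher and 1.67% lower. When cells were first divided into 3 classes by genes detected and ranked by Krt10 within each (median genes 6060 low and 6287 high untreated, 6513 and 6369 treated), 466 genes (4.26%) were higher and 51 (0.466%) lower, and 393 of the 687 and 24 of the 54 were among them. The lists below are given with their median among the cells with at least 5000 genes beside that of all cells.

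**Figure D2:**
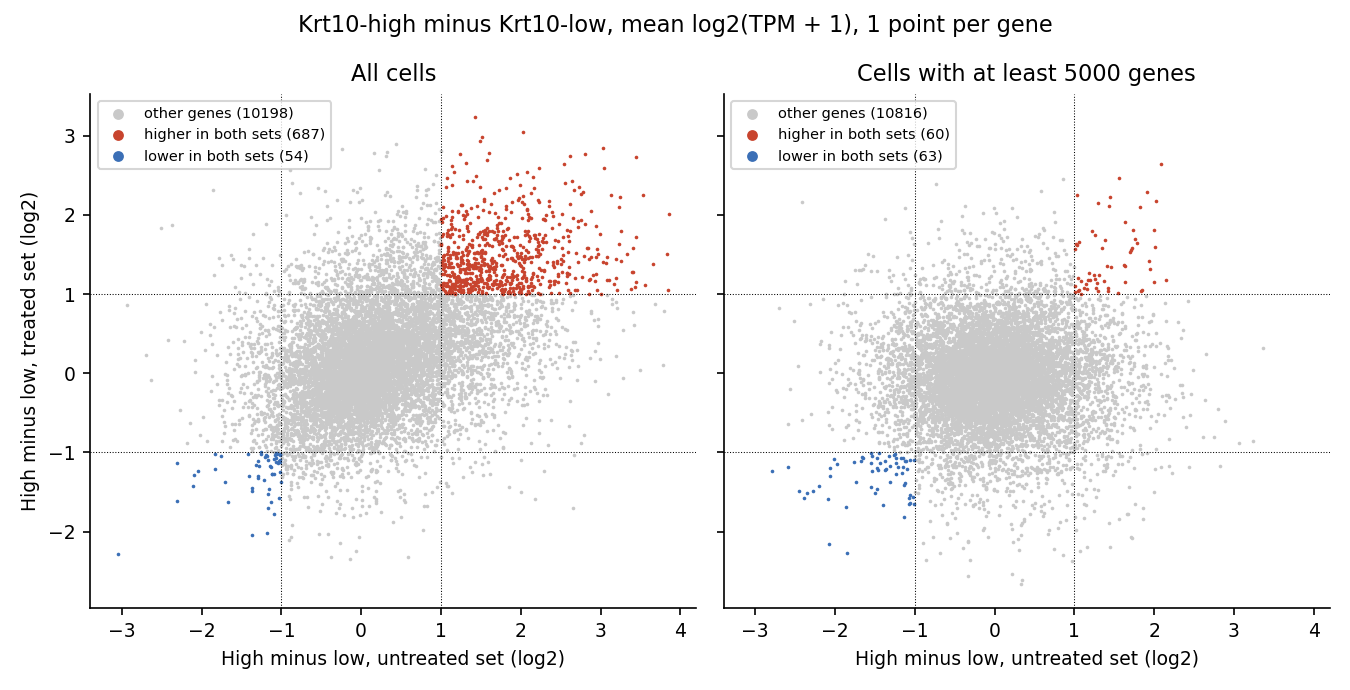
Krt10-high minus Krt10-low in the untreated set (x) and the treated set (y), each on the log2 scale, 1 point per gene. Dotted lines mark a difference of 1. With all cells 687 genes lie in the upper right corner and 54 in the lower left, and with cells of at least 5000 genes 60 and 63.

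Other type I keratins were higher where Krt10 was higher, and for several of them this was also so among the cells with at least 5000 genes. Of 10 type I keratins tested, a list taken by symbol after values were seen, 9 were higher in both sets and 0 lower (41.6% and 22.8% of all genes), with a median difference of 1.03, against 0.14 for all genes. By size 4 of them were called, Krt15, Krt16, Krt17 and Krt42, against 6.28% of all genes. Of 13 type II keratins 6 were higher and 1 lower in both sets, near the 41.6% of all genes that were higher, with a median of 0.19, and none was called. In cells with at least 5000 genes the medians were 0.42 for type I and 0.12 for type II, against -0.02 for all genes, and Krt42 was still called.

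Krt17, the type I keratin of activated keratinocytes and hair follicles, was the keratin whose level followed that of Krt10 most closely. In untreated cells it ranged from 679 to 36025 TPM in the low class (median 8928) and from 3777 to 51060 TPM in the high class (median 18868). In treated cells it ranged from 813 to 30589 TPM in the low class (median 10167) and from 2436 to 50573 TPM in the high class (median 19709). The classes overlapped widely, and in both sets the lowest value of the high class lay above the lowest of the low class. The difference of the class means of log2(TPM + 1) was 1.46 untreated and 1.10 treated, and 0.95 and 1.19 with cells of at least 5000 genes. With only the cells above 0 for Krt10 the differences were 0.33 and 0.98. Spearman's rho with Krt10 was 0.46 over 66 untreated and 0.41 over 64 treated cells.

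Krt42, a type I keratin whose gene is the neighbour of Krt17, had a larger difference at a much lower level. Its median was 14.8 TPM in untreated Krt10-low and 75.6 TPM in Krt10-high cells (ranges 0 to 2848 and 0 to 2257 TPM). In treated cells the medians were 21.3 and 43.6 TPM (ranges 0 to 458 and 3.66 to 1560 TPM). The ranges overlapped, and Krt42 was over 1 TPM in 13 of 22 and 18 of 21 Krt10-low cells against 21 of 22 and 21 of 21 Krt10-high cells. It was higher by 3.23 and 2.10 on the log2(TPM + 1) scale, and by 2.0 and 1.81 with cells of at least 5000 genes. With only the cells above 0 for Krt10 the differences were 0.66 and 1.44.

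Krt15, a marker of basal and hair follicle stem cells, had medians of 18.8 (low) and 101.8 TPM (high) in untreated cells, over ranges of 0 to 1242 and 9.77 to 952 TPM. In treated cells the medians were 65.4 and 163.4 TPM, over ranges of 0 to 1200 and 3.75 to 2657 TPM. Krt15 was listed at 0 in some Krt10-low cells of both sets and in none of the 43 Krt10-high cells. The differences of 2.26 and 1.30 became 0.76 and 0.88 with cells of at least 5000 genes.

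Krt14, the basal type I keratin, was higher by 0.56 and 0.97, under the size asked for, and by 0.55 and 0.90 with cells of at least 5000 genes. Its median was 4430 TPM in untreated Krt10-low and 6012 TPM in untreated Krt10-high cells (ranges 682 to 10790 and 429 to 13082 TPM). The treated medians were 3701 and 6602 TPM (ranges 63.7 to 20424 and 2122 to 15456 TPM). Its type II partner Krt5 differed less with all cells, by 0.30 and 0.68, with medians of 1648 and 1692 TPM untreated and 1563 and 1632 TPM treated. With cells of at least 5000 genes Krt5 was higher by 0.34 and 1.33, less than Krt14 in the untreated set and more in the treated set. Both pairs of classes overlapped.

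Krt16, which pairs with Krt6 in activated cells, was higher by 1.34 and 1.42, with medians of 290 and 398 TPM untreated and 226 and 406 TPM treated, and by 0.62 and 0.85 with cells of at least 5000 genes. Krt6a itself differed by -0.34 among untreated and by 1.6 among treated cells. Reads of near-identical keratins may have been discarded as multiply mapped, since 37.6% of the 50-base stretches of the Krt16 transcripts and 13.9% of those of Krt14 are also found in transcripts of other genes, and both levels are uncertain for that reason. For Krt17 the share was 3.99%, for Krt15 0.640%, for Krt42 0.234% and for Krt10 0%, so no 50-base stretch of Krt10 is shared with these keratins.

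**Figure D3:**
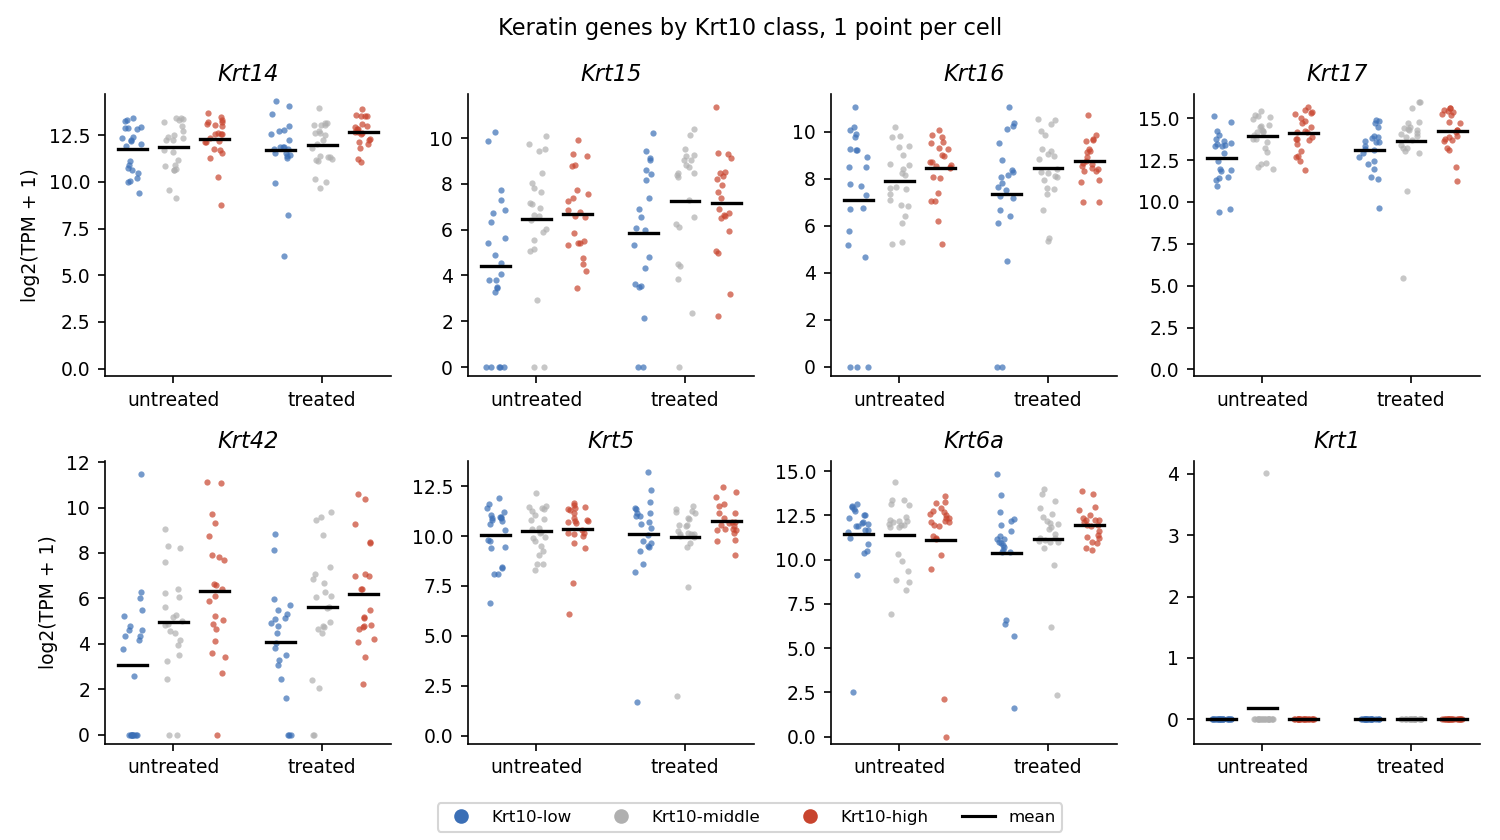
log2(TPM + 1) of keratin genes by Krt10 class in the untreated and the treated set, 1 point per cell, with bars at the class means. Krt15, Krt16, Krt17 and Krt42 have higher means in Krt10-high than in Krt10-low cells in both sets, with overlapping points, and Krt1 lies at 0 in both classes.

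Among early suprabasal and cornified envelope genes 2 were called higher, and neither was called in cells with at least 5000 genes, where Ly6d was called lower. Of 21 early suprabasal genes 9 could be tested, 7 were higher and 1 lower in both sets (41.6% and 22.8% of all genes), and 2 were called (6.28% of all genes were called higher), Lgals7 (galectin 7, an epithelial lectin) and Fabp5 (the epidermal fatty acid-binding protein). Lgals7, named after its value was seen, was higher by 2.58 and 1.27 and Fabp5 by 1.47 and 1.76, with a list median of 0.40. In cells with at least 5000 genes these became 0.94 and 0.45 for Lgals7, 0.03 and 0.15 for Fabp5 and 0.03 for the list. Of 23 cornified envelope genes tested 0 were called in either direction and the median was -0.01, or -0.25 in cells with at least 5000 genes. Ivl, involucrin, was over 1 TPM in 7 of 22 untreated and 6 of 21 treated Krt10-low cells, and in 3 of 22 and 3 of 21 Krt10-high cells, with a median of 0 in each class. Its difference was -1.50 untreated and -0.18 treated. Sprr1a, a small proline-rich envelope protein, had untreated medians of 514 (low) and 1991 TPM (high) and treated medians of 2104 and 1138 TPM, so that its medians were ordered differently in the 2 sets, while its mean log2(TPM + 1) was higher by 1.63 and 0.51, or by 0.90 and 0.19 with cells of at least 5000 genes.

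Single genes of the early list lay on both sides. Sfn (14-3-3 sigma) was higher by 0.79 and 0.70, and by 0.74 and 0.85 with cells of at least 5000 genes. Ly6d, a surface protein of stratified epithelia, was lower by 0.54 and 0.32 on the log2 scale in Krt10-high cells, and by 1.86 and 1.69 with cells of at least 5000 genes. In that setting it was the 1 early suprabasal gene called lower, against 0.576% of all genes. Lypd3, a surface protein of suprabasal layers, differed by 0.30 and 2.26, and by -0.68 and 0.97 with those cells. In the 12 barrier lipid genes tested 1 was called, Acer1, an alkaline ceramidase, which was lower by 1.16 and 1.09, and by 0.62 and 0.33 with cells of at least 5000 genes (0.494% of all genes were called lower). The list median was 0.03, or 0.02 with those cells.

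Among 25 transcription factors of differentiation 1 was called, Gata6, a factor of the hair follicle junctional zone and sebaceous duct, against 6.28% called higher among all genes, with a median over the list of 0.20, or -0.01 with cells of at least 5000 genes. Gata6 medians were 24.4 (low) and 44.99 TPM (high) untreated and 24.3 and 68.6 TPM treated, with both classes reaching 0, and it was higher by 1.51 and 1.42, or by 1.34 and 1.59 with cells of at least 5000 genes and by 0.12 and 1.41 with only the cells above 0 for Krt10. Klf4, a factor of barrier formation, differed by -0.27 and 1.01. Grhl3, required for barrier closure, differed by -1.53 and 0.09, and Gata3 by 0.21 and 0.50. Of these 3 genes only Gata3 had the same direction in both sets, and it did not reach the size of 1.

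Notch signalling, which drives commitment in the first suprabasal layer, gave 1 called gene of 15 tested, in the lower direction (0.494% of all genes), and a median of -0.01, or -0.17 with cells of at least 5000 genes. Hes1, a repressor induced by Notch, was lower in Krt10-high cells by 1.42 and 1.02, and by 0.32 and 0.39 with cells of at least 5000 genes. With only the cells above 0 for Krt10 Hes1 differed by 0.14 and -0.43. Its medians were 153.7 (low) and 57.4 TPM (high) untreated and 63.9 and 36.6 TPM treated, over ranges that overlapped (highest 2402 and 1090 TPM untreated). The receptors and ligands were not of one direction. Notch1 differed by -0.47 and 1.02, Notch3 by 0.21 and 0.28, Jag1 by -0.46 and 1.42, and Jag2 by 0.94 and -0.43. Itgb1, the beta1 integrin of basal cells, differed by 0.12 and 0.23, and Itga6 by -0.41 and 0.13. Of 15 basal layer genes tested only Krt15 was called, about the 6.28% of all genes called higher, with a list median of 0.48 that became -0.02 in cells with at least 5000 genes.

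Mitotic genes lay mostly on the lower side. Of 28 genes of the G2 and M phases 18 were lower in Krt10-high cells in both sets and 1 was higher in both (22.8% and 41.6% of all genes), with a median of -0.71, against 0.14 for all genes, and of -0.73 among cells with at least 5000 genes. By set the median was -0.21 for untreated and -0.80 for treated cells. By size 2 of 28 were called lower, Cenpf and Cenpe, both proteins of the kinetochore (Cenpe was named after its value was seen), against 0.494% of all genes. Cenpf had medians of 80.01 (low) and 26.2 TPM (high) untreated and 47.5 and 20.7 TPM treated. Its ranges overlapped in both sets, with 12.5 to 815 and 4.73 to 1322 TPM untreated. Cenpf was lower by 1.12 and 1.27, and by 0.68 and 0.75 with cells of at least 5000 genes. With those cells, where 0.576% of all genes were called lower, the 2 genes of the list past the size of 1 were others, Mki67 (-1.03 and -1.56) and Ccnb2, cyclin B2 (-2.07 and -1.30), of which Ccnb2 differed by 0.02 and -0.59 with all cells.

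Mki67, the proliferation marker Ki-67, was over 1 TPM in 14 of 22 untreated and 14 of 21 treated Krt10-low cells and in 10 of 22 and 11 of 21 Krt10-high cells. Its difference was -0.67 untreated and -1.69 treated. Cells with high mitotic levels were present in both classes. The highest of 3 classes of cells by the mean level of the list included 8 Krt10-low and 7 Krt10-high untreated cells, and 8 and 6 treated cells. Of 24 genes of the G1/S transition and DNA replication 2 were called higher, Tipin, of the replication fork protection complex, and Rrm1, a ribonucleotide reductase subunit, with a list median of -0.09, against 6.28% called higher among all genes. In cells with at least 5000 genes the list median was -0.42 and neither was called, with 0.03 and -0.11 for Tipin and 0.69 and 0.77 for Rrm1. Cdkn2b, the cyclin-dependent kinase inhibitor p15, was 1 of 13 cell cycle inhibitors called (6.28% of all genes were called higher). The list median was 0.37, or 0.12 with cells of at least 5000 genes, where Ccng2, cyclin G2, was called lower (-1.48 and -1.07, named after its value was seen) and no member higher. Cdkn2b had medians of 53.1 (low) and 193.3 TPM (high) untreated and 88.7 and 142.4 TPM treated. It was higher by 2.60 and 1.25, and by 1.86 and 0.52 with cells of at least 5000 genes. Cdkn1a, the inhibitor p21, was higher by 1.24 and 0.38.

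Genes of mitochondria and protein turnover made up a visible part of the higher genes. These lists were taken by symbol after values were seen, and among all genes 6.28% were called higher and 0.494% lower. Of 75 oxidative phosphorylation subunits 36 were called higher and 0 lower (median 1.33). Of 76 mitochondrial ribosomal proteins 24 were called higher and 0 lower (median 1.07), and of 37 proteasome subunits 16 and 0 (median 1.29). Cytosolic ribosomal proteins had 0 of 76 called, with 61 higher in both sets (41.6% of all genes) and a median of 0.57. Among cells with at least 5000 genes the medians were 0.16, 0.18, 0.10 and 0.11, and 0 of the 75, 76, 37 and 76 genes were called. With Krt10 ranked within classes of genes detected, where the cells under 5000 genes were kept, they were 0.98, 0.83, 0.94 and 0.37, against 0.11 for all genes. With the middle class set against the low class they were 1.16, 0.95, 1.19 and 0.41, against 0.18 for all genes. These differences from the low class were therefore not particular to Krt10-high cells. Genes called higher had shorter exonic sequence, with a median of 2574.5 bases against 3875 for genes called lower and 4241 for all genes tested. They also had a higher median level, 5.53 on the log2(TPM + 1) scale against 2.98 and 2.22. They were over 1 TPM in a median of 86.2% of cells, against 83.5% and 57.7%. The part of level in the difference of length was not tested.

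**Figure D4:**
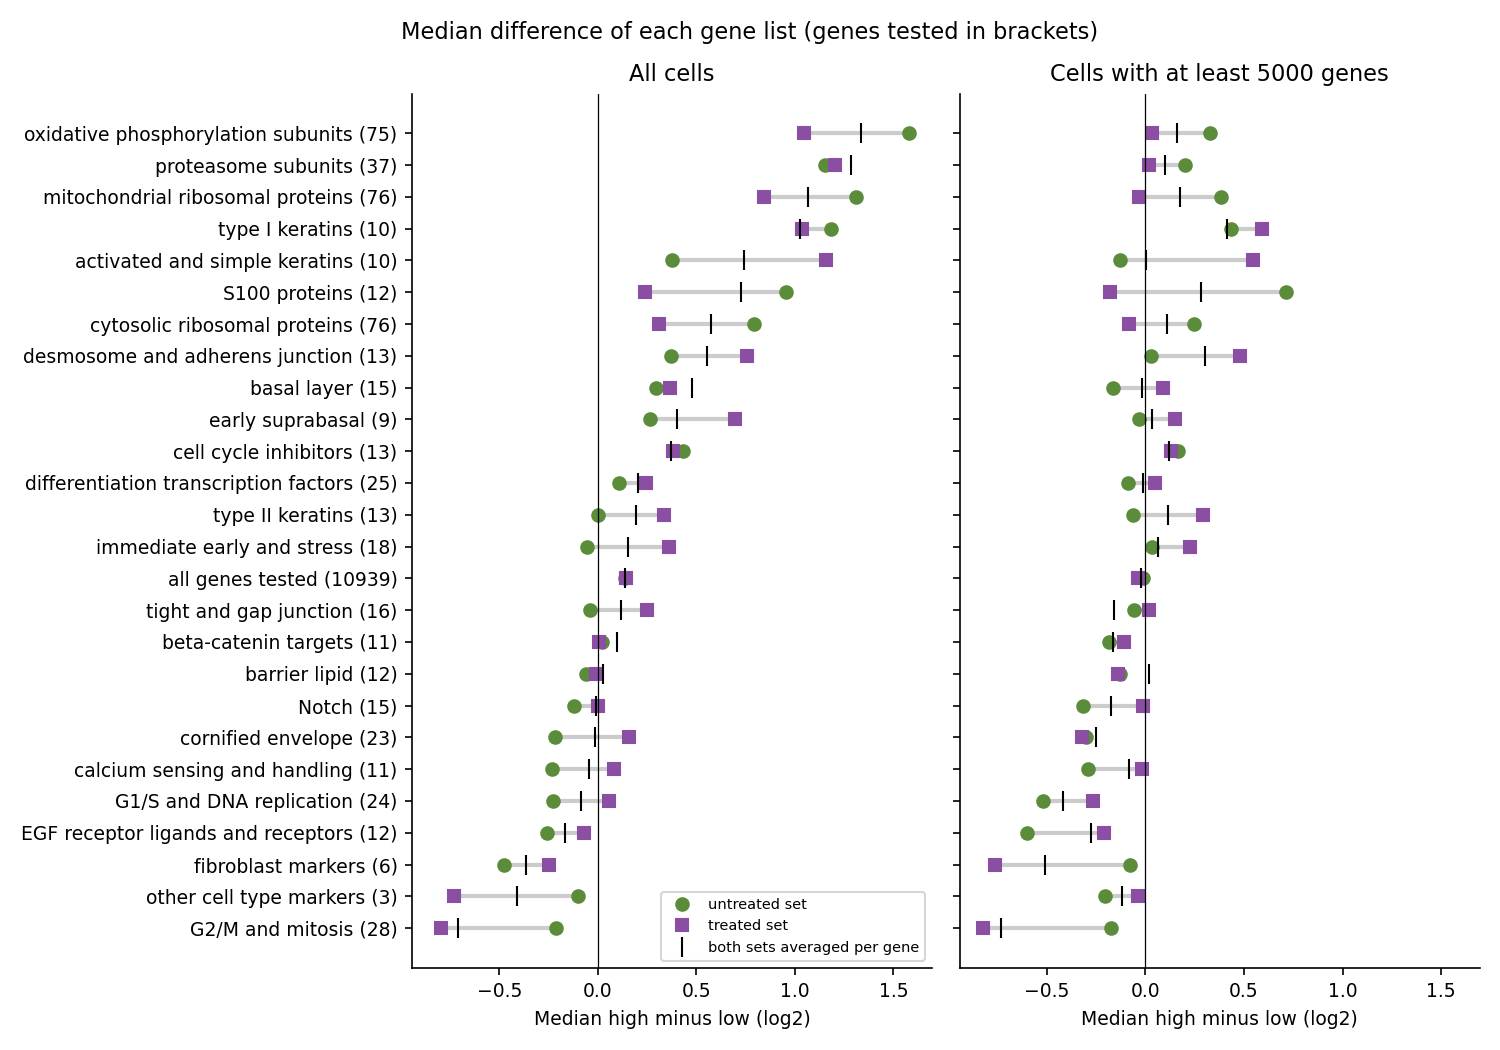
Median of Krt10-high minus Krt10-low over the genes of each list (genes tested in brackets), on the log2 scale, for the untreated set (circles), the treated set (squares) and the genes averaged over both (ticks). Oxidative phosphorylation, proteasome and mitochondrial ribosomal lists lie between 0.84 and 1.58 in both sets with all cells and between -0.03 and 0.38 with cells of at least 5000 genes. By set the mitosis list lies at -0.21 (untreated) and -0.80 (treated) with all cells, and at -0.17 and -0.82 with cells of at least 5000 genes. Its ticks lie at -0.71 and -0.73.

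The 12 genes with the largest difference in the higher direction in both sets were Ccs, Tspan6, Ten1, Ptcd2, Mrpl34, Nudt14, Uqcrfs1, Csrp2, Tspo, Atp6v1d, Eef1akmt1 and Mrpl2. Each was over 1 TPM in fewer Krt10-low than Krt10-high cells in both sets, with 6 to 18 of 22 untreated and 10 to 17 of 21 treated Krt10-low cells. Ten1, a subunit of the CST complex at telomeres, was listed at 0 in the median untreated Krt10-low cell, with a range of 0 to 150 TPM, and had a median of 63.4 TPM in the high class (2.39 to 200 TPM). In treated cells the medians were 19.1 and 53.2 TPM (ranges 0 to 82.4 and 9.85 to 217 TPM). It was over 1 TPM in 9 of 22 and 13 of 21 Krt10-low cells and in all 43 Krt10-high cells, and the ranges overlapped.

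Ten1 was higher by 3.44 and 2.73 (limma standard error of the mean difference 0.31, Benjamini-Hochberg adjusted p = 0.181), and by 2.01 and 1.6 with cells of at least 5000 genes. Tspan6, a tetraspanin of the cell membrane, was higher by 2.81 and 2.77, and by 2.09 and 2.65 with those cells. It was over 1 TPM in 8 of 22 and 10 of 21 Krt10-low cells and in 18 of 22 and 18 of 21 Krt10-high cells. Ptcd2, a mitochondrial RNA-processing protein, was higher by 2.61 and 2.74, and by 2.02 and 2.17. Ccs, the copper chaperone of superoxide dismutase, was higher by 3.03 and 2.85, but by 1.32 and 0.93 with cells of at least 5000 genes. Uqcrfs1, the Rieske protein of respiratory complex III, went from 2.64 and 2.44 to 1.35 and 0.82. Of the 12 genes, Ten1, Tspan6 and Ptcd2 kept a difference of at least 1 in both sets with those cells. With only the cells above 0 for Krt10 Ten1 kept it (1.32 and 1.87), while Tspan6 (0.97 and 2.63) and Ptcd2 (0.72 and 2.03) did not.

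By rank over all cells of a set, the 5 genes most like Krt10 were Ten1, Mrpl34, Krt17, Atp6v0e and Tnfrsf12a. Spearman's rho was 0.51 (n = 66 untreated cells) and 0.48 (n = 64 treated cells) for Ten1. It was 0.40 and 0.38 for Mrpl34, a mitochondrial ribosomal protein, and 0.39 and 0.39 for Atp6v0e, a subunit of the vacuolar proton pump. For Tnfrsf12a, the receptor of the cytokine TWEAK, it was 0.38 and 0.40. Mrpl34 was listed at 0 in part of the Krt10-low cells, with 12 of 22 and 16 of 21 over 1 TPM, against 20 of 22 and 21 of 21 Krt10-high cells. Its difference went from 3.04 and 2.59 to 0.76 and 1.04 with cells of at least 5000 genes.

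Lad1 and Rab25 are examples, picked after values were seen, of the 50 higher genes that kept their size in cells with at least 5000 genes. Lad1, ladinin of the basement membrane zone, had medians of 23.3 and 102.8 TPM untreated and 41.4 and 152.6 TPM treated. It was higher by 2.23 and 1.76, and by 1.09 and 1.17 with those cells. Rab25, an epithelial GTPase of recycling endosomes, had medians of 16.6 and 106.3 TPM untreated and 26.3 and 97.6 TPM treated, and was higher by 2.08 and 2.54, or by 1.75 and 1.70. Ranges overlapped for both genes.

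The 12 genes with the largest difference in the lower direction were Rhox8, Adamts1, Pigr, Ccr4, Psg28, Spice1, Cplx2, Lrrd1, Mylk4, Mum1, Ptcra and Rab3c. Several are known from other tissues, such as Ccr4 (a chemokine receptor of T cells), Ptcra (the pre-T-cell receptor alpha chain), Psg28 (a pregnancy-specific glycoprotein), Cplx2 (a synaptic complexin) and Rab3c (a GTPase of secretory vesicles). They were nevertheless over 1 TPM in 65.4% (Ccr4), 97.7% (Ptcra), 74.6% (Psg28), 98.5% (Cplx2) and 97.7% (Rab3c) of the 130 cells. Rhox8 was lower by 3.05 and 2.28. Its medians were 233 (low) and 43.1 TPM (high) untreated and 127.4 and 19.1 TPM treated, with a highest value of 159750 TPM in the untreated low class and 1694 TPM in the untreated high class. Pigr was lower by 2.31 and 1.61, with medians of 298 and 52.0 TPM untreated and 100 and 61.02 TPM treated. With cells of at least 5000 genes Rhox8 was lower by 1.55 and 0.51 and Pigr by 0.95 and 0.06. Of the 12 genes Adamts1 and Spice1 kept a difference of at least 1 in both sets with those cells. There Ccr4 differed by -0.69 and -0.13, Cplx2 by -0.10 and -0.09, Mylk4 by -0.19 and 0.11 and Rab3c by -0.68 and 0.15. With only the cells above 0 for Krt10 Adamts1 kept that size (-2.05 and -1.95) and Spice1 did not (-0.94 and -0.93). In that setting Ccr4 differed by -0.07 and -0.27, Cplx2 by 0.39 and -0.35, Mylk4 by 0.14 and -0.16 and Rab3c by -0.11 and -0.10.

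Adamts1, a secreted metalloprotease that cleaves versican, kept its difference. Its median was 90.7 TPM in untreated Krt10-low and 24.6 TPM in untreated Krt10-high cells (ranges 0 to 1583 and 0 to 310 TPM). In treated cells the medians were 18.003 and 2.70 TPM (ranges 0 to 566 and 0 to 333 TPM), so that both classes reached 0 and overlapped. It was lower by 1.67 and 1.63 with all cells, and by 2.08 and 1.59 with cells of at least 5000 genes. Insig1, which holds back sterol synthesis and was picked after values were seen, was lower by 1.20 and 1.03, and by 2.08 and 2.16. Spice1, a centriole and spindle protein, was lower by 1.37 and 1.48, and by 1.65 and 1.07.

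**Figure D5:**
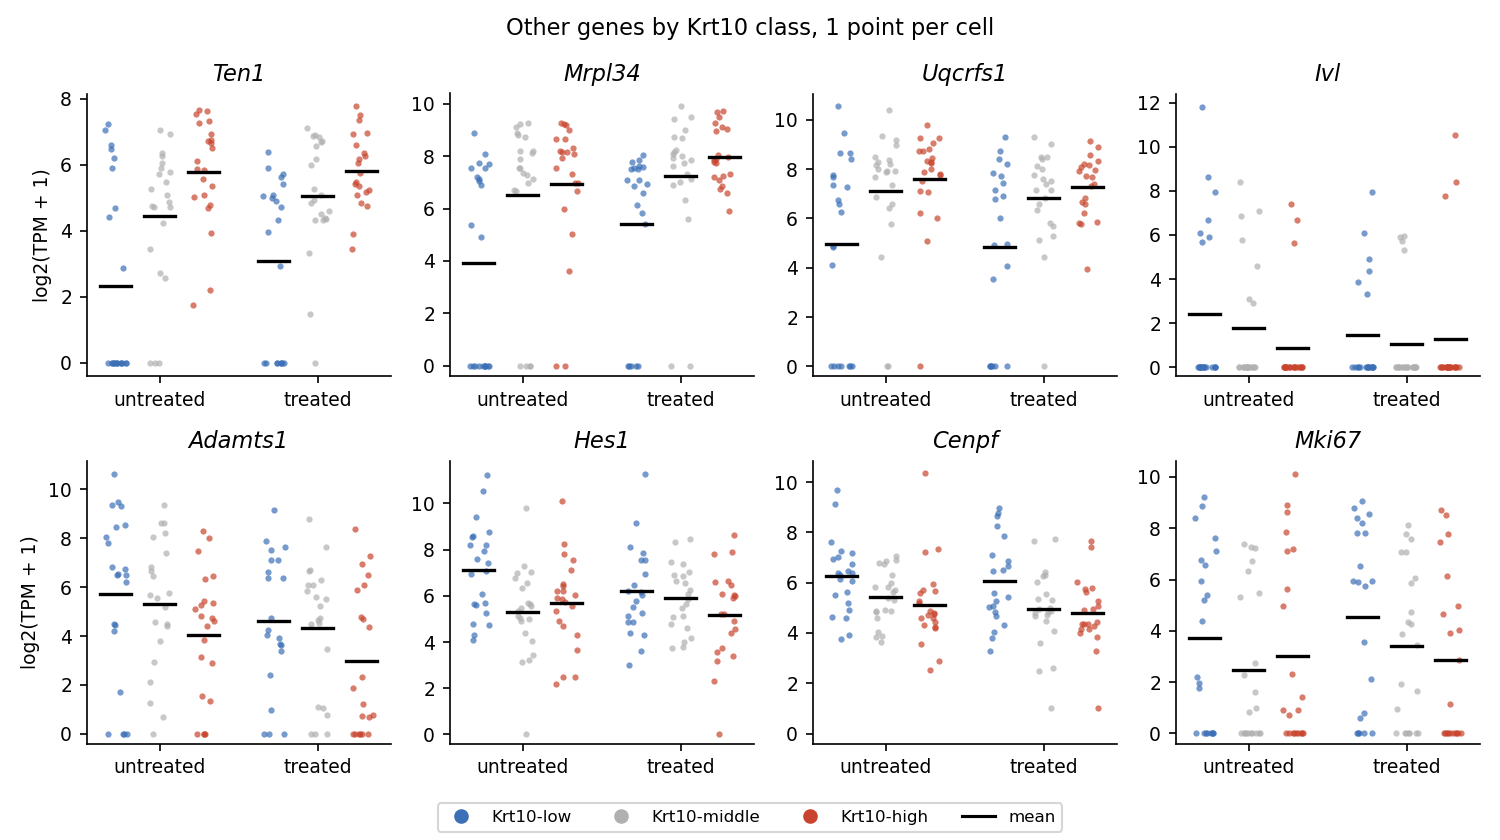
log2(TPM + 1) of 8 genes by Krt10 class in the untreated and the treated set, 1 point per cell, with bars at the class means. Ten1, Mrpl34 and Uqcrfs1 have Krt10-low cells at 0 in both sets, and Adamts1, Hes1, Cenpf and Mki67 have lower means in Krt10-high cells in both sets.

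The remaining lists are given with their median in cells with at least 5000 genes in brackets, and their counts stand against 6.28% of all genes called higher and 0.494% called lower. S100a16 was 1 of 12 S100 proteins called, higher by 2.39 and 1.83, and by 1.02 and 0.19 with cells of at least 5000 genes, where it was not called, and the list median was 0.72 (0.28), with 0.95 untreated and 0.24 treated (0.71 and -0.18). Desmosome and adherens junction genes had 0 of 13 called, with 8 higher in both sets (41.6% of all genes) and a median of 0.55 (0.30), and among them Perp, a desmosomal membrane protein, was higher by 0.83 and 1.95 and Cdh1, E-cadherin, by 0.65 and 1.80. With cells of at least 5000 genes these were 0.27 and 0.76 for Perp and 0.07 and 1.39 for Cdh1. Tight and gap junction genes had a median of 0.12 (-0.16) over 16 genes. Activated and simple keratins had Krt16 and Krt17 called of 10 (median 0.74, or 0.00). Genes induced by beta-catenin had 0 of 11 called and a median of 0.10 (-0.17). Axin2, a feedback inhibitor of that pathway, was over 1 TPM in 13.8% of the 130 cells and differed by 0.20 and 0.01. Calcium handling had 0 of 11 called and a median of -0.05 (-0.08), EGF receptor ligands and receptors 0 of 12 and -0.17 (-0.27), and immediate early and stress genes 0 of 18 and 0.15 (0.06).

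Markers of other cell types were also read in both classes. Of 6 fibroblast markers tested 4 were lower in Krt10-high cells in both sets and 0 higher (22.8% and 41.6% of all genes, median -0.37, or -0.51 with cells of at least 5000 genes), and Col1a1, collagen I, was over 1 TPM in 8 of 22 cells of each untreated class and in 7 and 6 of 21 treated cells, with medians of 0. The summed level of the 4 fibroblast markers Col1a1, Col1a2, Col3a1 and Dcn had medians of 4.36 (low) and 1.04 TPM (high) untreated and of 0 in both treated classes. Tyr, tyrosinase of melanocytes, was over 1 TPM in 100% of the 130 cells, with medians of 44.7 and 18.96 TPM untreated and 25.1 and 16.7 TPM treated, while Pmel and Mlana, other melanocyte genes, were over 1 TPM in 75.4% and 0.769% of them. Their part in the differences was not tested. The markers Dcn of fibroblasts and Kdr of endothelium were each over 1 TPM in 1.54% of the cells, and Krt20 and Atoh1 of Merkel cells in 0.769% and 3.85%. Of 2 sebocyte markers Scd3, a stearoyl-CoA desaturase, was over 1 TPM in 97.7% of the cells, with class medians from 13 to 17.8 TPM, and Mc5r, a melanocortin receptor, in 1.54%.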

How the data were processed

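Single keratinocytes were captured on the Fluidigm C1 and amplified with SMART-Seq v4. The authors trimmed reads with cutadapt after FastQC, mapped them to GRCm38 by TopHat without multiply mapped reads, which lowers near-identical paralogs, summed reads per gene by featureCounts and deposited TPM. The depth per cell is unknown. They filtered cells on aligned reads and genes expressed. Whether this was done before deposit is not given in the sources used here.

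Groups came from the labels, which name no culture, so p-values measure only the spread between the 2 sets of cells. These sets also differ in treatment, and an effect of 4OHT on a difference cannot be told apart from other spread between them. Of 294 columns, 16 unlabelled ones were left out, and 8 cells whose labels conflict were placed only in alternatives. Genes over 1 TPM in more than 5 AG cells were kept, without Krt10. Class means of log2(TPM + 1) per set entered limma 3.58.1 (R 4.3.3, two-sided, Benjamini-Hochberg adjustment), with the set as a block because both classes of a set share their culture conditions. Differences on this scale understate the change of low genes. Other steps used Python 3.11.15, pandas 2.3.3 and GENCODE M21, and promoters were taken from RefSeq (GRCm38.p6). The fit was tested on simulated data. At the spread between these sets it made no calls there, so that 0 calls say nothing of single genes. Alternatives covered the pseudocount, the filter, the mean, the class size, the cells and the scaling.

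Named genes were the 12 per direction with the largest smaller difference of the 2 sets among genes in at least 20% of cells, the 4 highest members of each of 19 lists, a fixed list, and the 5 most correlated with Krt10. The members and lists were chosen with earlier results of these data known. Genes named outside this rule, and 6 lists taken by symbol, were picked after values were seen. Some genes that the rule names are not reported here.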

Additional observations from a re-analysis of the deposited data

Results flagged for a closer look

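Plcd1, phospholipase C delta 1 of the calcium handling list, differed in opposite directions in the 2 sets. Krt10-high minus Krt10-low was -1.85 on the log2(TPM + 1) scale in the untreated set and 2.32 in the treated set. Median levels were 61.2 (low) and 40.1 TPM (high) untreated and 0 and 97.2 TPM treated. With cells of at least 5000 genes the differences were -1.55 and 1.30. The difference between the sets was not tested. Among all 10939 genes 56 were at least 1 apart in opposite directions.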

How the results depend on the processing

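Calls by size (6.28% of genes higher and 0.494% lower with all cells) moved with these settings. A pseudocount of 0.1 gave 13.5% and 1.65%, log2 of the mean TPM 1.52% and 6.11%, 2 classes in place of 3 gave 1.63% and 0.0914%, 4 classes 10.7% and 1.41%, cells with at least 5000 genes 0.548% and 0.576%, and cells centred on their mean 3.57% and 1.67%. Among settings added after seeing the data, only cells with Krt10 above 0 gave 0.439% in each direction, and the middle class in place of the high class 5.74% and 0.219%. By 1 set alone, calls ranged from 13% to 17% higher and from 3.01% to 4.39% lower. limma called 0 genes in each of 15 settings with a test, which with 1 residual degree of freedom says nothing of their stability. Its count at an unadjusted p under 0.05 (2080) was 966 with log2 of the mean TPM, 1377 with 2 classes, 613 with cells of at least 5000 genes and 641 with Krt10 above 0. Without the replicate block, which is paired by set, it was 1552. The median difference over all genes (0.138) was 0.318 with a pseudocount of 0.1, 0.185 with genes in at least 10% of cells, 0.0354 without a filter, 0.08652 with 2 classes, 0.1829 with 4, 0.11 with Krt10 classes within classes of genes detected, 0.129 and 0.122 with the 8 cells placed by label or by name prefix, 0.18 with the middle class, and 0.136 to 0.143 with 1 set left out. It turned to -0.106 with log2 of the mean TPM, -0.0243 with cells of at least 5000 genes, -0.0933 with centring and -0.0124 with Krt10 above 0. The difference in median genes detected in the untreated set (454.5) was larger with 4 classes (1324.5) and with the 8 cells placed by label (541). It was smaller with 2 classes (255), with Krt10 classes within classes of genes detected (227) and with cells of at least 5000 genes. It was also smaller with the 8 cells placed by name prefix (370) and with the middle class (407.5). The difference in median genes detected in the untreated set turned to -79 with Krt10 above 0. That in the treated set (48) was 479 with 4 classes, 205.5 with the 8 cells placed by name prefix and 456.5 with the middle class. It turned to -60.5 with 2 classes, -144 with Krt10 classes within classes of genes detected, -162 with at least 5000 genes and -179 with Krt10 above 0. None of these differences in genes detected was tested. Of named genes called by size, Tipin (-0.0419) turned with cells of at least 5000 genes. With Krt10 above 0, Tipin (-0.103), Fabp5 (-0.631) and Cplx2 (0.0234) turned, and with the middle class Insig1 (1.05) and Mogs (0.354). The causes were not tested. TPM carry no read depth, so no counting error could be given for a single cell.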
